A study of Arabidopsis thaliana with 18 samples.

Results

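Pigment synthesis genes were followed through an experiment on the hormone abscisic acid (ABA) in Arabidopsis thaliana seedlings. The set held 5 listed loci, PAP1 (AT1G56650), PAP2 (AT1G66390), DFR (AT5G42800), LDOX (AT4G22880) and FLS1 (AT5G08640), and all 5 were found among the 6740 genes of the authors' deposited table. The plants were the pyl duodecuple line, in the Col-0 background and named for mutations in 12 genes of the PYR/PYL family of ABA receptors, and the Col-0 wild type. PYL6 and PYL13 are outside that name. Seedlings of both genotypes were grown for 9 days and then kept for 24 h on filter paper with 100 µM ABA, with 300 mM mannitol, which withdraws water and imposes osmotic stress, or with 1/2 MS medium alone as the control. Total RNA of whole seedlings was sequenced from 3 samples in each of the 6 groups, 18 in all.

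For each group the authors deposited a single value that stands for its 3 samples. The unit is taken as FPKM, which scales fragments by transcript length and by sequencing depth. Values of single samples are thus not given, no replicate error can be stated, and sequencing depth is unknown. A gene is said to have risen or fallen only where the authors called that comparison of a treatment with its control. Their rule for a call is not given in the sources used here. Ratios between the genotypes, or between mannitol and ABA, carry no call and were not tested. Each gene of the table was called in at least 1 of the 4 comparisons, so the shares of the table given here are of genes that responded somewhere, not of all genes. Of the 12 mutated receptor genes 5 are in the table. In the duodecuple control PYL8 stood at 73.0 FPKM, PYL5 at 13.1, PYL4 at 112, PYR1 at 181 and PYL12 at 1.57 FPKM. In the wild-type control PYL8 stood at 225 FPKM, PYL5 at 90.6, PYL4 at 183, PYR1 at 173 and PYL12 at 0.407 FPKM. The alleles are not described in the sources used here, so a transcript level near that of wild type does not bear on the protein.

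Flavonoids are made from phenylalanine by the phenylpropanoid pathway, and their first committed step joins a phenylpropanoid to malonyl units. At the dihydroflavonols the pathway divides: flavonol synthase (FLS1) leads to the colourless flavonols, whereas dihydroflavonol 4-reductase (DFR) and then leucoanthocyanidin dioxygenase (LDOX) lead to the red and purple anthocyanins. PAP1 and PAP2 are related R2R3-MYB transcription factors that switch on the late, anthocyanin-specific genes together with bHLH partners such as TT8 and the WD40 protein TTG1. In seedlings anthocyanins are known to build up under strong light, sugar, nutrient shortage and drought.

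Both MYB regulators were at low levels in unstressed seedlings and at their highest in mannitol-treated wild type. PAP1 stood at 2.02 FPKM in the duodecuple line on ABA, 23.3 on mannitol and 2.51 in its control, and at 7.23 FPKM in wild type on ABA, 50.9 on mannitol and 1.17 in its control. Mannitol thus gave the 2 highest PAP1 values, and the duodecuple value on ABA was below that of its own control. PAP2 stood at 3.43 FPKM in the duodecuple line on ABA, 3.11 on mannitol and 2.21 in its control, and at 6.01 FPKM in wild type on ABA, 29.9 on mannitol and 0.103 in its control. The 3 duodecuple values of PAP2 lay between 2.21 and 3.43 FPKM, and the wild-type ones were spread 291-fold.

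The anthocyanin enzymes were expressed in every group and had their lowest level in the wild-type control. DFR stood at 82.3 FPKM in the duodecuple line on ABA, 203 on mannitol and 103 in its control, and at 238 FPKM in wild type on ABA, 271 on mannitol and 36.1 in its control. LDOX stood at 53.1 FPKM in the duodecuple line on ABA, 183 on mannitol and 71.2 in its control, and at 99.0 FPKM in wild type on ABA, 222 on mannitol and 23.3 in its control. For both enzymes the duodecuple control lay between the wild-type control and the wild type on ABA. FLS1, the flavonol enzyme, had another order: 209.9 FPKM in the duodecuple line on ABA, 67.0 on mannitol and 185 in its control, against 76.0 FPKM in wild type on ABA, 65.7 on mannitol and 77.6 in its control. Only the duodecuple line on ABA and on control medium exceeded 100 FPKM of FLS1, and the other 4 groups lay between 65.7 and 77.6 FPKM. With 1 value per group it cannot be said which neighbours in these orders differ beyond their spread.

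**Figure D1:**
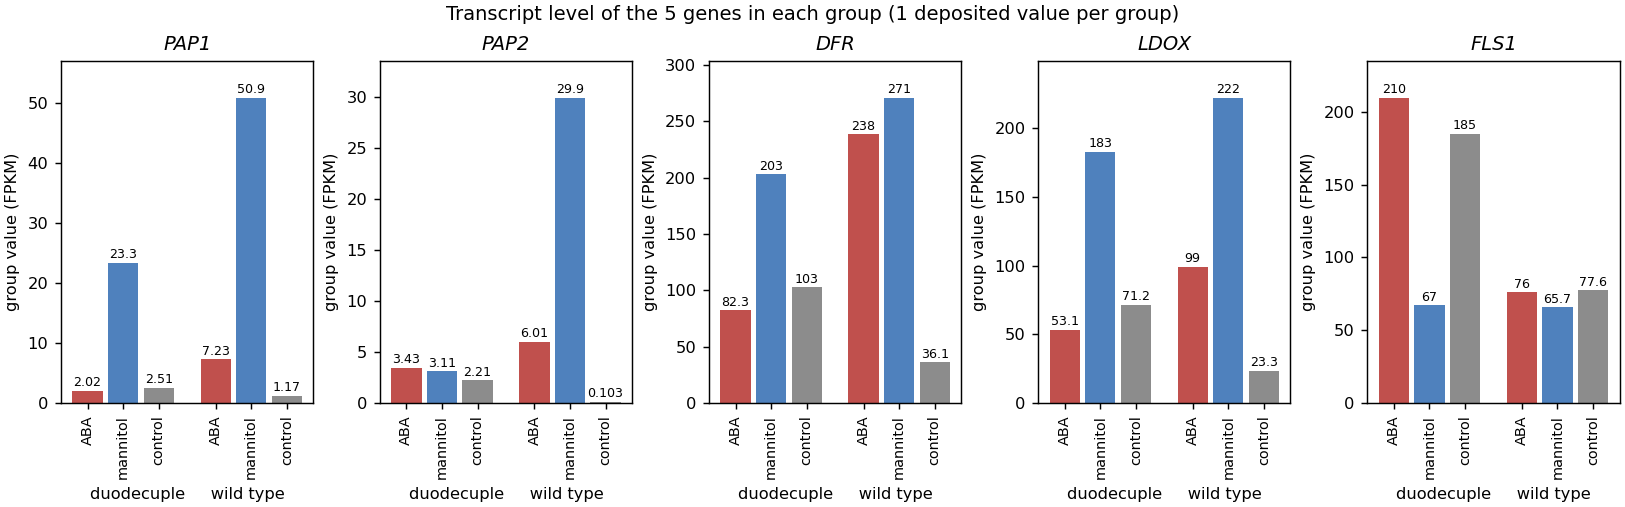
Group values in FPKM (linear axis from 0, a separate scale for each gene) for PAP1, PAP2, DFR, LDOX and FLS1; red bars are ABA, blue bars mannitol and grey bars control, with the duodecuple line left of wild type. Each bar is the authors' single value for a group, without an error. In wild type PAP1 reaches 50.9 FPKM on mannitol, and FLS1 is highest in the duodecuple line on ABA (209.9 FPKM) and on control medium (185 FPKM).

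In the duodecuple line 0 of the 5 genes was called under ABA, and 0 was 2-fold or more apart from the control. The authors called 2.49% of the table higher and 2.79% lower in that comparison. A count of 0 among 5 genes lies near those shares. The log2 ratios of ABA over control were -0.42 for LDOX, -0.32 for DFR, -0.32 for PAP1, 0.18 for FLS1 and 0.63 for PAP2. PAP1, DFR and LDOX were thus slightly below their control values, by differences that no replicate value can be set against.

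In wild type ABA raised 4 of the 5 genes, where 17.6% of the table was called higher and 27.3% lower. PAP2 rose 58.4-fold, DFR 6.61-fold, PAP1 6.18-fold and LDOX 4.26-fold over the control, and FLS1 was not called, with a log2 ratio of -0.03. The median log2 ratio of the 5 genes was 2.63, beside -0.31 over all table genes. In whole seedlings fewer cells of a type and less RNA per cell cannot be told apart. The PAP2 ratio rests on a control value of 0.103 FPKM: with 1 FPKM added to both values its log2 ratio was 2.67 in place of 5.87. With 5 FPKM added, PAP1 was just under a 2-fold rise, at a log2 ratio of 0.99.

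In the duodecuple line mannitol raised PAP1 and LDOX and lowered FLS1. The authors called 23.3% of the table higher and 27.2% lower. PAP1 rose 9.27-fold, to 23.3 FPKM on mannitol against 2.51 FPKM on control medium, and LDOX rose 2.57-fold. DFR was 1.98-fold higher, at 203 against 103 FPKM, and was not called. No called gene of this comparison was less than 2-fold apart, and DFR lay just under that limit. PAP2 was not called either, at 3.11 against 2.21 FPKM. FLS1 fell 2.76-fold, to 67.0 FPKM on mannitol against 185 FPKM on control medium, a level close to the 65.7 FPKM of wild type on mannitol. This was the only comparison of the 4 in which FLS1 was called.

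Mannitol raised PAP1, PAP2, DFR and LDOX in wild type as well, where 33.1% of the table was called higher and 35.3% lower. PAP2 rose 291-fold and PAP1 43.4-fold, beside 9.56-fold for LDOX and 7.51-fold for DFR. FLS1 was not called, with a log2 ratio of -0.24. Both wild-type comparisons share the control samples, so their folds are not independent of each other. With 1 FPKM added the log2 ratio of PAP2 under mannitol was 4.81 in place of 8.18.

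Mannitol gave 11.5-fold more PAP1 than ABA, 3.44-fold more LDOX and 2.47-fold more DFR in the duodecuple line, while PAP2 was 1.10-fold lower and FLS1 3.13-fold lower. There 23% of the table was 2-fold or more higher and 26.9% lower. Set against each other in wild type, mannitol gave 7.03-fold more PAP1 than ABA, 4.98-fold more PAP2, 2.25-fold more LDOX and 1.14-fold more DFR. These 3 genes at 2-fold or more compare with 27.9% of table genes at 2-fold or more higher on mannitol than on ABA and 19.1% lower. DFR, the first enzyme of the anthocyanin branch, thus stood at nearly the same level under both treatments in wild type, whereas PAP1 differed. In the duodecuple line DFR and PAP1 were both higher on mannitol than on ABA.

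**Figure D2:**
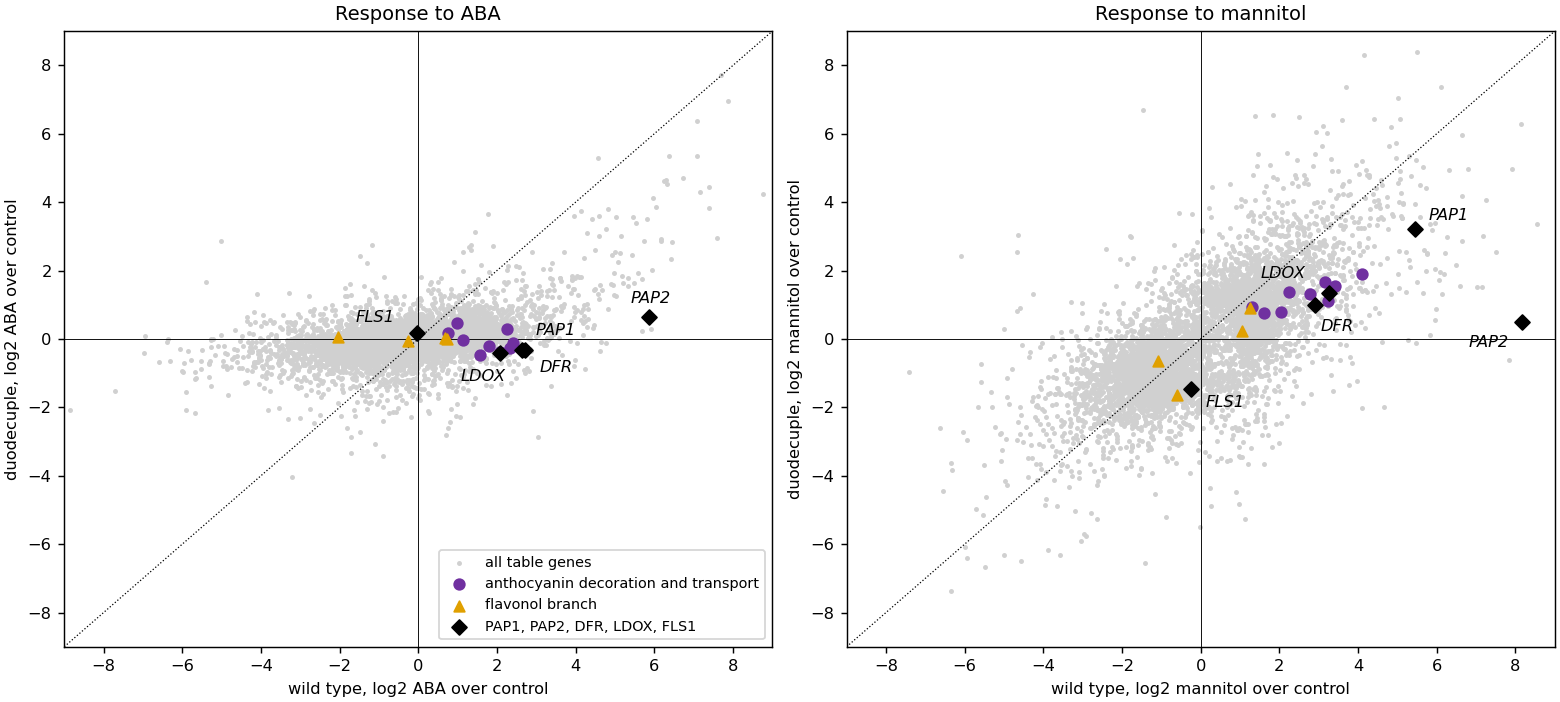
Log2 ratio of treatment over control in the duodecuple line (vertical axis) against wild type (horizontal axis) for ABA (left) and mannitol (right). Black diamonds are the 5 genes, violet circles the listed anthocyanin decoration and transport genes, orange triangles the listed flavonol branch genes, and grey points all table genes, of which 149 (ABA) and 140 (mannitol) with a value of 0 or a ratio beyond the axes are not drawn; the dotted line marks equal responses. Under ABA the anthocyanin genes lie near 0 on the vertical axis, and under mannitol PAP1 lies at 3.21 in the duodecuple line and 5.44 in wild type.

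Transcript levels of single enzymes from both branches can be set against each other in FPKM, which is scaled to length. DFR stood at 0.392 times the FLS1 level in the duodecuple line on ABA, at 3.03 times on mannitol and at 0.554 times on control medium. In wild type DFR stood at 3.14 times the FLS1 level on ABA, at 4.12 times on mannitol and at 0.465 times on control medium. DFR thus exceeded FLS1 in both mannitol groups and in wild type on ABA, and was below it in both controls and in the duodecuple line on ABA. LDOX over FLS1 gave the same division, with ratios of levels of 0.253, 2.72 and 0.385 in the duodecuple line on ABA, mannitol and control medium and of 1.30, 3.38 and 0.300 in wild type. These are ratios of transcript levels of single genes and say nothing of enzyme activity or of a branch as a whole.

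On control medium all 5 genes were more abundant in the duodecuple line than in wild type by 2-fold or more, a limit passed upwards by 7.68% of the table and downwards by 6.21%. PAP2 was 21.5-fold higher, at 2.21 against 0.103 FPKM, LDOX 3.06-fold, DFR 2.84-fold, FLS1 2.39-fold and PAP1 2.15-fold higher. The median log2 ratio of the 5 was 1.51, beside -0.01 over all table genes. DFR, LDOX and FLS1 stood at 23.3 FPKM or more in both controls, whereas the regulators were at 2.51 FPKM or less. With 1 FPKM added to both values PAP1 was no longer 2-fold apart, at a log2 ratio of 0.69, and with 5 FPKM added PAP2 was not either, at 0.50. These ratios and the wild-type folds of treatment over control are divided by the same wild-type control values, so they are not independent of each other.

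On ABA the genotype ratios of PAP1 and DFR lay opposite to that of FLS1. PAP1 was 3.58-fold lower and DFR 2.90-fold lower in the duodecuple line than in wild type, while FLS1 was 2.76-fold higher. LDOX and PAP2 had log2 ratios of -0.90 and -0.81, under the 2-fold limit. In the table as a whole, 29.1% of genes were 2-fold or more higher and 18.6% lower. On mannitol PAP2 was 9.62-fold lower and PAP1 2.18-fold lower in the duodecuple line. The 3 enzymes were within 2-fold of wild type there, with log2 ratios of -0.42 for DFR, -0.28 for LDOX and 0.03 for FLS1. In that comparison 18.1% of the table was 2-fold or more higher and 20.7% lower. With 5 FPKM added PAP1 was under 2-fold in both treatments, with log2 ratios of -0.80 on ABA and -0.98 on mannitol.

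The response difference, the duodecuple log2 ratio of treatment over control minus the wild-type one, was negative for the 4 anthocyanin genes under both treatments and was not tested. Under ABA it was -5.23 for PAP2, -3.04 for DFR, -2.94 for PAP1 and -2.51 for LDOX, and 0.21 for FLS1. Differences of -1 or lower made up 16% of the table, and those of 1 or higher 25.1%. Under mannitol the difference was -7.69 for PAP2, -2.23 for PAP1, -1.92 for DFR, -1.90 for LDOX and -1.23 for FLS1, with 19.4% of the table at -1 or lower and 17.2% at 1 or higher. The PAP2 values rest on its wild-type control of 0.103 FPKM. With 1 FPKM added they were -2.21 under ABA, smaller in size than the -3.01 of DFR, and -4.45 under mannitol. By construction each value is the genotype ratio on treatment minus the genotype ratio on control medium. For DFR and LDOX under mannitol the larger share of the difference lies in the control groups, where their log2 genotype ratios were 1.51 and 1.61, beside -0.42 and -0.28 on mannitol. For PAP1 under mannitol both terms were of similar size, 1.10 on control medium and -1.13 on mannitol. For FLS1 they were 1.25 and 0.03, and for PAP2 4.42 and -3.27. Under ABA the control term was also the larger for PAP2, at 4.42 beside -0.81 on ABA, and for LDOX, at 1.61 beside -0.90. The DFR terms were of similar size, 1.51 and -1.54, and for PAP1 the term on ABA was the larger, at -1.84 beside 1.10.

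**Figure D3:**
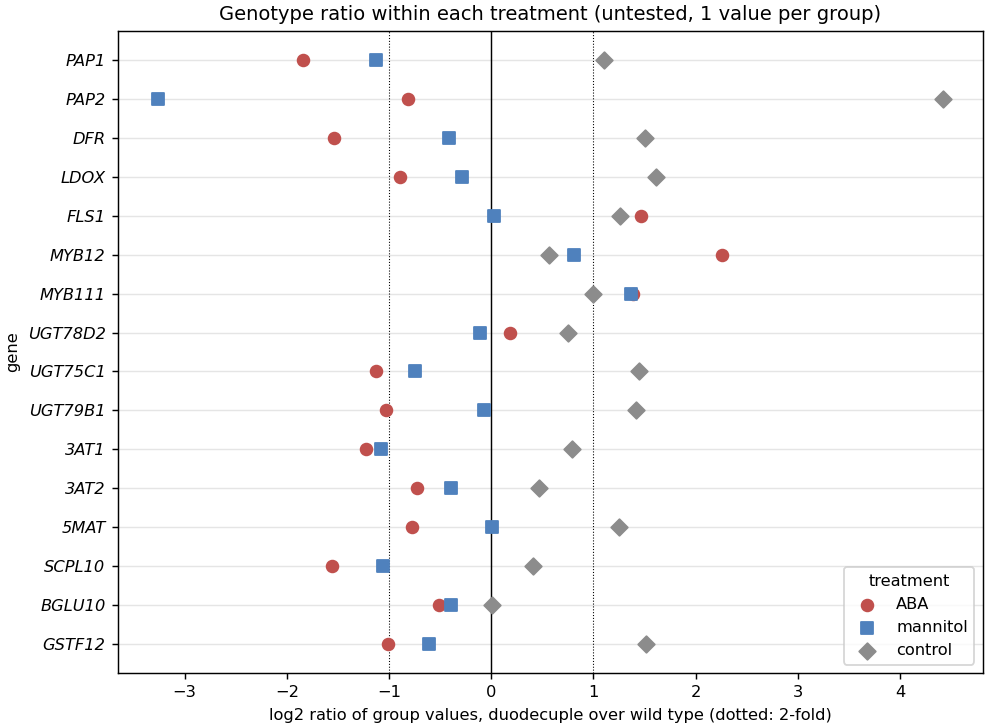
Log2 ratio of group values, duodecuple over wild type, for the 5 genes, 2 flavonol regulators and 9 decoration and transport genes (rows) on ABA (red circles), mannitol (blue squares) and control medium (grey diamonds); dotted lines mark 2-fold. The ratios are untested. Control points of the 5 genes lie right of the 2-fold line, PAP2 at 4.42, and FLS1 lies right of it on ABA as well.

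PAP1 lies on chromosome 1 at 21233555-21235292 (minus strand) and PAP2 on chromosome 1 at 24763941-24765541 (plus strand), both with 3 exons. DFR lies on chromosome 5 at 17164093-17166032 (minus strand, 6 exons), FLS1 on chromosome 5 at 2803833-2805606 (plus strand, up to 4 exons) and LDOX on chromosome 4 at 12004726-12006209 (minus strand, up to 3 exons). These positions are those of the RefSeq annotation of TAIR10.1, the build from which sequence was read. The submitters' processing notes name TAIR10, and the deposited table holds no coordinates. No other annotated gene overlaps any of the 5.

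PAP2 has close relatives next to it, which bears on how its reads were assigned. MYB114 (AT1G66380) ends 4987 bases before the start of PAP2 and MYB113 (AT1G66370) 9179 bases before it; neither is among the table's genes, and their levels were not analysed here. Coding sequences were aligned base by base. PAP2 shared 91.2% of 420 aligned bases with MYB114, 84.3% of 747 with PAP1 and 82.1% of 738 with MYB113. The number of such reads was not counted, and a read longer than a stretch cannot lie wholly within it: this limits what follows. The longest identical stretches of PAP2 are with MYB114 (67 bases, from base 1 of the coding sequence) and with PAP1 (42 bases, from base 152). They are shown because reads wholly within them fit both genes.
PAP2 and MYB114: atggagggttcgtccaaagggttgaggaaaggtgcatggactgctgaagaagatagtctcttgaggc
PAP2 and PAP1: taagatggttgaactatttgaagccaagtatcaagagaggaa
How the authors' counting treated such reads is not given in the sources used here, so the PAP2 level is uncertain to that extent.

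The 250 bases before the annotated start of each gene (RefSeq, TAIR10.1, 5′ to 3′ on the strand of the gene) are shown because PAP1, PAP2, DFR and LDOX moved together in wild type and FLS1 did not. Capitals mark ACGTG, the core of the ABA-responsive element, and CCAACC, a MYB-type element, each searched on both strands.
PAP1 (chr1:21235293-21235542, minus strand): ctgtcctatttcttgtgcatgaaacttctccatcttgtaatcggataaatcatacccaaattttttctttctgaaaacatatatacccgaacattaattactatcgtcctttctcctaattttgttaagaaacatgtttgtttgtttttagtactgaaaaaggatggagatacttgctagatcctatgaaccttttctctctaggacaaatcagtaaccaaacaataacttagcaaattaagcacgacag
PAP2 (chr1:24763691-24763940, plus strand): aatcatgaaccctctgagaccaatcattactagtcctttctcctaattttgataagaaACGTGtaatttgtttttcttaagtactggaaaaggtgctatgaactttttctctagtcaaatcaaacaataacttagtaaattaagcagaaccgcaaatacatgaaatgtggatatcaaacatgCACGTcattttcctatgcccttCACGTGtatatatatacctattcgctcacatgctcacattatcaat
DFR (chr5:17166033-17166282, minus strand): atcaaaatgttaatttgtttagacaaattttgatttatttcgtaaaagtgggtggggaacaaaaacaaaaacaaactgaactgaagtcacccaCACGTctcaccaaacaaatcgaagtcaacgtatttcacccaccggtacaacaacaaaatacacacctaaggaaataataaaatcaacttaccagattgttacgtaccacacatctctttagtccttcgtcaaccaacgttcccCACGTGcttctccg
LDOX (chr4:12006210-12006459, minus strand): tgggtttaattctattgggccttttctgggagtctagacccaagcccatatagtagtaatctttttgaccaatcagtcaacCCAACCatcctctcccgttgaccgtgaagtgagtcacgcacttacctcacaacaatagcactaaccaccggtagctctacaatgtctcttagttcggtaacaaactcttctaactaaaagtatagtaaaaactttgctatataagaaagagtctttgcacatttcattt
FLS1 (chr5:2803583-2803832, plus strand): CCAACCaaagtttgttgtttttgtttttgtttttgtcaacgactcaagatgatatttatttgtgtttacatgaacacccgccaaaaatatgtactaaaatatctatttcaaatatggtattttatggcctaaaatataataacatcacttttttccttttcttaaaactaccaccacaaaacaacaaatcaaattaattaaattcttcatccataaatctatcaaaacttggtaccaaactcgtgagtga
ACGTG was found upstream of PAP2 and DFR, 2 of the 5, beside 22.9% of 27443 promoters of the same length. PAP2 had it at -192, at -68 and within a CACGTG at -46, and DFR at -157 and within a CACGTG at -14, counting back from the gene start. CACGTG, the G-box bound by bZIP and bHLH factors, contains ACGTG on both strands, so it counts 2 times there, and 6.49% of all promoters hold it. CCAACC was found upstream of LDOX, at -169, and of FLS1, at -250, beside 6.32% of all promoters. CANNTG, the E-box that also covers CACGTG, had matches upstream of PAP2 and DFR (55.3% of all promoters), and CCGAC, the core of the drought-responsive element, upstream of none of the 5 (12% of all promoters). ACCTAAC and ACCTACC, the AC elements of phenylpropanoid promoters, were upstream of none of the 5 and of 2.46% and 1.16% of all promoters. A match describes letters in this window and is not a shown binding site.

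The PAP1 window held none of the 7 motifs. It shared 3 identical stretches of 10 or more bases with the PAP2 window. The stretches are shown because PAP1 rose under mannitol in the duodecuple line and PAP2 was not called there.
From -145 in PAP1 and -218 in PAP2: gtcctttctcctaattttg
From -32 in PAP1 and -130 in PAP2: caaacaataacttag
From -16 in PAP1 and -114 in PAP2: aaattaagca
They lie nearer to the start of PAP1 than to that of PAP2, by 73 to 98 bases.

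Genes that modify and move anthocyanins were called higher wherever they were called, as LDOX was. All 9 genes of that list were in the table. In the duodecuple line 0 of 9 was called under ABA and 6 of 9 rose under mannitol, and in wild type 7 of 9 rose under ABA and 9 of 9 under mannitol. None fell. Of the table, 2.49% and 23.3% were called higher in the duodecuple line on ABA and on mannitol, and 17.6% and 33.1% in wild type on ABA and on mannitol. The count of 0 of 9 on ABA in the duodecuple line lies near its table share. Their median log2 ratio was -0.12 under ABA and 1.32 under mannitol in the duodecuple line, beside -0.03 and -0.29 over all table genes. In wild type it was 1.80 under ABA and 2.79 under mannitol, beside -0.31 and -0.20 over all table genes. UGT75C1, the anthocyanin 5-O-glucosyltransferase, rose 3.72-fold on mannitol in the duodecuple line, to 82.1 against 22.0 FPKM, and 17.1-fold in wild type, to 138 against 8.06 FPKM. GSTF12, the glutathione transferase needed to carry anthocyanins to the vacuole, stood at 77.6 FPKM in the duodecuple line on ABA, 183 on mannitol and 84.6 in its control, and at 157 FPKM in wild type on ABA, 279.6 on mannitol and 29.7 in its control. On control medium 4 of the 9 were 2-fold or more higher in the duodecuple line and none 2-fold lower, with GSTF12 at 2.85-fold and UGT75C1 at 2.73-fold, beside 7.68% of table genes. On ABA 5 of the 9 were 2-fold or more lower in the duodecuple line and none higher, beside 18.6% of table genes lower. On mannitol 2 of the 9 were 2-fold lower, a share close to the 20.7% of the table. The acyltransferase genes 3AT1 and 3AT2 are related copies, so reads may have been divided between them.

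The bHLH partner TT8 was called in the same 3 comparisons as PAP1, and EGL3 was not. Of the 6 listed activators beside PAP1 and PAP2 only TT8 and EGL3 were in the table. TT8 rose 2.26-fold on mannitol in the duodecuple line, where it stood at 6.79 against 3.01 FPKM, and in wild type rose 4.27-fold on ABA and 8.43-fold on mannitol. EGL3 fell in the duodecuple line on mannitol, at 1.21 against 3.09 FPKM, and had no other call. Of 8 repressors 3 were in the table. MYB7 rose in 3 comparisons, 2.21-fold on mannitol in the duodecuple line, and 2.37-fold on ABA and 2.92-fold on mannitol in wild type. LBD38, a nitrate-induced repressor of anthocyanin genes, was not called in the duodecuple line, at 98.3 FPKM on ABA and 81.8 on mannitol against 105 in its control. It fell in wild type, to 33.9 FPKM on ABA and 47.8 on mannitol against 101 in its control. SPL9 fell on mannitol in both genotypes. Of the table, 23.3% rose and 27.2% fell in the duodecuple line on mannitol. In wild type 17.6% rose and 27.3% fell on ABA, and 33.1% rose and 35.3% fell on mannitol. The share of table genes with the same 3 calls as PAP1 was not counted.

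The 2 flavonol regulators in the table had higher values in the duodecuple line in all 3 media, by ratios that were not tested. MYB12 and MYB111, which activate FLS1 and the early enzymes, were in the table out of a list of 5 that also holds HY5. MYB12 stood at 9.75 FPKM in the duodecuple line on ABA, 7.31 on mannitol and 7.24 in its control, and at 2.03 FPKM in wild type on ABA, 4.18 on mannitol and 4.90 in its control. It was called lower under ABA in wild type, and on ABA it was 4.80-fold higher in the duodecuple line. MYB111 stood at 7.27 FPKM in the duodecuple line on ABA, 2.88 on mannitol and 6.77 in its control, and at 2.77 FPKM in wild type on ABA, 1.11 on mannitol and 3.40 in its control. It fell under mannitol in both genotypes. The genotype ratio was 2-fold or more for both regulators on ABA, for MYB111 alone on mannitol and for neither on control medium. Of the table, 29.1%, 18.1% and 7.68% were 2-fold or more higher in the duodecuple line on ABA, mannitol and control medium. Of the 12 flavonol branch genes listed beside FLS1, 4 were in the table, with no common direction. Under mannitol FLS4 fell in the duodecuple line, and FLS2 and OMT1 rose and UGT78D1 fell in wild type. FLS4 also fell in wild type on ABA, to 0.969 against 3.98 FPKM. FLS2 and FLS4 belong to a tandem cluster of FLS copies, so their reads may have been shared.

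Among the listed genes upstream of DFR the largest rise in wild type was 3.27-fold on mannitol, for F3H, and 3.87-fold on ABA, for PAL4. Of the 5 early flavonoid enzymes F3H and F3'H were in the table. F3H, which makes the dihydroflavonols, stood at 167 FPKM in the duodecuple line on ABA, 166 on mannitol and 139 in its control, and at 178 FPKM in wild type on ABA, 212 on mannitol and 64.8 in its control. It had no call in the duodecuple line and rose under both treatments in wild type. F3'H, which sets the hydroxylation of the B-ring, rose 2.29-fold on mannitol in wild type and had no other call. Of 9 general phenylpropanoid enzymes 6 were in the table. In the duodecuple line 2 rose and 1 fell on mannitol, and in wild type 2 rose on ABA and 5 on mannitol. In the table, 23.3% rose and 27.2% fell in the duodecuple line on mannitol, and in wild type 17.6% rose on ABA and 33.1% on mannitol. With 6 genes, the duodecuple counts lie within 1 gene of the table shares. PAL4, a phenylalanine ammonia-lyase gene, rose 2.02-fold on mannitol in the duodecuple line and 2.91-fold in wild type. Its relative PAL3 fell on mannitol in the duodecuple line, to 2.90 against 11.4 FPKM. C4H rose 2.66-fold on mannitol in wild type. No gene of these lists was 2-fold higher in the duodecuple control other than F3H (2.14-fold) and F3'H (2.68-fold).

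Over the 8 pathway lists together 33 of 63 genes were in the table. In the duodecuple line 0 of 33 was called under ABA, and 12 rose and 6 fell under mannitol. In wild type 13 rose and 3 fell under ABA, and 22 rose and 6 fell under mannitol. Table shares were 2.49% higher and 2.79% lower in the duodecuple line on ABA and 23.3% and 27.2% on mannitol, and in wild type 17.6% and 27.3% on ABA and 33.1% and 35.3% on mannitol. The count of 0 of 33 in the duodecuple line on ABA lies near the table shares. In the other 3 comparisons a larger share of the pathway genes than of the table rose, and a smaller share fell. The 9 decoration and transport genes gave 6 of the 12 rises in the duodecuple line on mannitol. In wild type they gave 7 of the 13 on ABA and 9 of the 22 on mannitol. The lists were chosen with earlier results of these data known, so the pooled counts are not independent support.

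**Figure D4:**
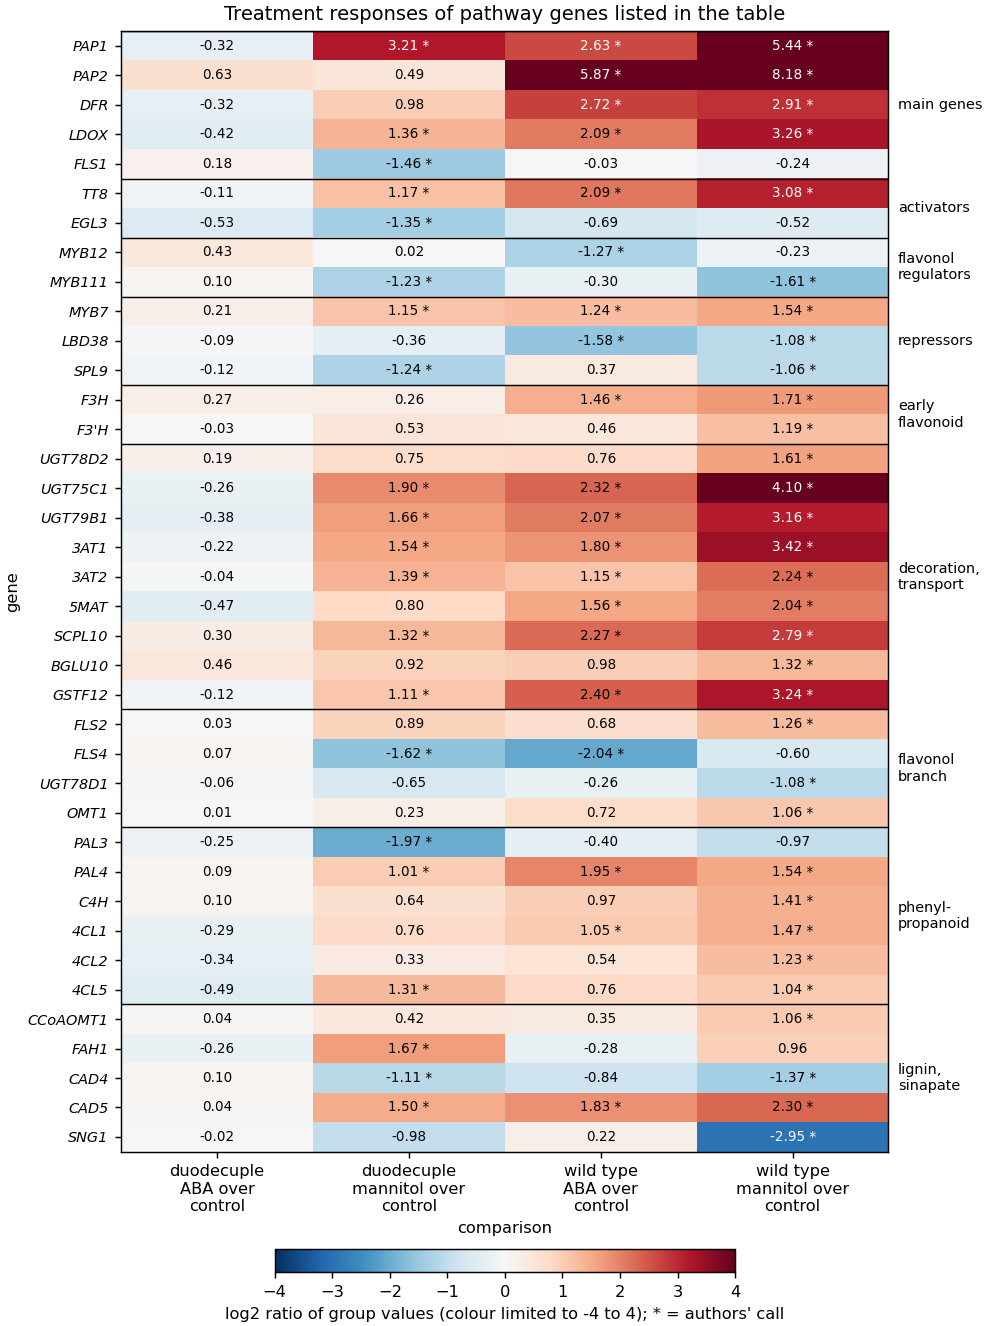
Log2 ratio of treatment over control for the 5 genes and the 33 pathway genes in the table (rows, by role) in the duodecuple line on ABA and mannitol and in wild type on ABA and mannitol (columns). Red is higher and blue lower on treatment, colours end at -4 and 4, and an asterisk marks the authors' call. The first column holds no asterisk, and the last column has 4.10 for UGT75C1 and 8.18 for PAP2.

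Profiles over the 6 groups were compared as Pearson's r of log2(FPKM + 1) with 5002 genes that reached 5 FPKM in a group. These are descriptions over 6 values that share libraries. PAP1 was most like ENDO2 (r = 0.9992), GTR1 (0.9989) and STO (0.9988), but 4.68% of the genes reached 0.95 with it. DFR was most like PLAT1 (0.991), GSTF12 (0.981) and NSP5 (0.967), and LDOX most like UGT79B1 (0.995), 5MAT (0.991) and PFK7 (0.988), with 0.42% and 0.56% of the genes at 0.95 or more. PAP2 was most like RTM1 (0.986), MYB45 (0.981) and ELIP1 (0.981), and FLS1 most like ATS3 (0.984), ABCI20 (0.965) and AT5G62210 (0.958), with 0.44% and 0.08% at 0.95 or more. Pearson's r does not weigh the size of a change. PAP2 lay between 0.103 and 29.9 FPKM, RTM1 between 5.09 and 11.7, MYB45 between 3.96 and 9.94 and ELIP1 between 4.89 and 641. PAP1 and LDOX ranked the 6 groups in the same order, wild type on mannitol first and the wild-type control last, and so did TT8, GSTF12, UGT75C1, UGT79B1, 3AT1, 3AT2 and 4CL2. Of the 5002 genes 53, or 1.06%, had that order with PAP1.

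Photosynthesis markers of the shoot were mostly lower on treatment in wild type and mostly not called in the duodecuple line. The summed level of the 5 marker genes was 21549 FPKM in the duodecuple line on ABA, 13808 on mannitol and 22861 in its control, and 15662 FPKM in wild type on ABA, 4752 on mannitol and 24612 in its control. Of these 5 genes 1 fell in the duodecuple line in each treatment, and in wild type 3 fell on ABA and 4 on mannitol. In the table, 2.79% fell on ABA and 27.2% on mannitol in the duodecuple line, and 27.3% on ABA and 35.3% on mannitol in wild type. The sums are carried by RBCS1A, RBCS3B and CAB1. In the duodecuple line CAB3 stood at 459 FPKM on mannitol against 315 in its control and LHCA1 at 583 against 465, neither called. On control medium none of the 5 shoot markers was 2-fold apart between the genotypes, beside 7.68% of the table higher and 6.21% lower. With 5 genes a count of 0 lies near those shares. The 3 root markers in the table, of 5, summed to 46.9, 22.0 and 48.5 FPKM in the duodecuple line on ABA, mannitol and control medium, and to 15.2, 39.0 and 35.7 FPKM in wild type. CASP1 gave the largest part of each sum except in wild type on mannitol, where EXPA7 stood at 18.8 FPKM and CASP1 at 16.5. COBL9 was at 3.73 FPKM or less in every group. CASP1 and COBL9 fell on mannitol in the duodecuple line, and in wild type CASP1 fell on ABA and EXPA7 rose on mannitol. On control medium these 3 were higher in the duodecuple line, CASP1 1.30-fold, EXPA7 1.56-fold and COBL9 1.57-fold. These ratios are under the 2-fold limit and were not tested. The part of organ shares in the pigment gene values was not tested. None of the 5 listed seed coat genes for proanthocyanidins is among the table's genes, so they were not analysed here.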

How the data were processed

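RNA of whole seedlings was sequenced in 18 samples, 3 for each of 6 groups taken from the sample titles. The submitters' processing notes name TAIR10 and the tools TopHat, Cufflinks and Cuffdiff; versions, settings and strandedness are not given in the sources used here. The authors deposited 1 value per group (2 columns that repeat the control headers were not used), taken as FPKM because these tools write it, although the header does not name the unit. Per the file headers the authors also deposited a log2 ratio of treatment over control, which equalled that of the group values within 4.7e-05, and a yes or no call. Depth per sample is unknown, and no interval or test could be computed. Tests fixed for values per library were therefore not run, and calls are the authors'. Called genes were at least 2-fold apart, except 1 in wild type on mannitol. Without a call, 201 to 312 genes per comparison were at least 2-fold apart, of which 4 to 18 reached 5 FPKM in 1 of the compared groups or both.

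Ratios between genotypes and between treatments were taken from group values without a pseudocount and counted at 2-fold or more, a gene at 0 in 1 group counting as past it and a gene at 0 in both left out; response differences need values above 0 in all 4 groups. The genes, the 8 pathway lists and 3 marker lists were chosen with earlier results of these data known, so no count is independent support. Named genes are the 5 loci, up to 4 list members per list and comparison with the largest ratios, and the 3 most similar profiles of each locus; other list members were named after their values were seen. Coding sequences were compared in place of the planned proteins, which were not used here. Identifiers of 6726 genes matched the RefSeq table, which gave symbols. Counting, profile and motif code recovered planted changes in simulated data. Alternatives were pseudocounts of 0.1, 1 and 5 FPKM, a minimum of 5 FPKM, 2-fold and 4-fold limits in place of calls, and Spearman's rho. Calculations used pandas 2.3.3 and numpy 2.4.6 in Python 3.11.15, with Biopython 1.88 for alignment, scipy 1.17.1 and matplotlib 3.10.9.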

Additional observations from a re-analysis of the deposited data

How the results depend on the processing

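Of 110 values of the 5 genes under another pseudocount 103 kept their direction and their side of the 2-fold limit or call, 7 fell under 2-fold and none reversed. With 5 FPKM added these were PAP1 on ABA over control in wild type (log2 0.99), PAP1 in duodecuple over wild type on ABA (-0.80), mannitol (-0.98) and control medium (0.28), PAP2 in that ratio on control medium (0.50) and the PAP2 response difference under ABA (-0.88). With 1 FPKM added PAP1 on control medium was at 0.69, and the PAP2 response differences were -2.21 under ABA and -4.45 under mannitol, in place of -5.23 and -7.69. DFR, LDOX and FLS1 kept their side under each pseudocount. Under a 4-fold limit the genes higher in the duodecuple line on mannitol over control were 1 in place of 2 and those lower 0 in place of 1. Duodecuple over wild type at 4-fold had 0 higher and 0 lower on ABA, in place of 1 and 2, had 1 lower on mannitol in place of 2 and 1 higher on control medium in place of 5. With 5 FPKM added 3 of 5 were 2-fold higher on control medium, and 1 was lower on ABA and 1 on mannitol. Of the 9 decoration genes 0 was 4-fold higher under mannitol in the duodecuple line, in place of 6, and 4 under ABA in wild type, in place of 7. Of 33 pathway genes 0 was 4-fold higher in the duodecuple line under mannitol, in place of 12, and in wild type 5 under ABA, in place of 13, and 9 under mannitol, in place of 22. Those 4-fold lower were 0 in place of 6, 1 in place of 3 and 1 in place of 6 in these comparisons. With 5 FPKM added the decoration genes 2-fold lower in the duodecuple line were 1 of 9 on ABA, in place of 5, and 0 on mannitol, in place of 2, and 7 pathway genes were 2-fold higher under mannitol over control there. The pathway genes 2-fold lower with 5 FPKM added were 2 in place of 6 in the duodecuple line on mannitol, and in wild type 1 in place of 3 on ABA and 3 in place of 6 on mannitol. Those called lower and at 5 FPKM or more in a group were 3 in place of 6 in the duodecuple line on mannitol and 1 in place of 3 in wild type on ABA. Of 30 profile values 11 were under 0.95 with another pseudocount or Spearman's rho, among them RTM1 with PAP2 at 0.927. No paired analysis was possible because the table holds 1 value per group, and for the same reason no replicate could be left out and depth sets no stated limit.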

Other observations

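The lignin and sinapate branch leaves the phenylpropanoid pathway before the flavonoids, and 5 of its 9 listed genes were in the table. None was called in the duodecuple line under ABA, where 2.49% of the table was called higher and 2.79% lower, shares near which such a count lies. On mannitol 2 of the 5 rose and 1 fell in the duodecuple line, beside 23.3% and 27.2% of the table. In wild type 2 rose and 2 fell on mannitol, beside 33.1% and 35.3%. SNG1, which makes the sunscreen ester sinapoylmalate, stood at 78.0 FPKM in the duodecuple line on ABA, 39.9 on mannitol and 78.8 in its control, and at 190.1 FPKM in wild type on ABA, 21.0 on mannitol and 163 in its control. It fell in wild type on mannitol and was 2.06-fold lower in the duodecuple control than in the wild-type control, opposite in sign to the 5 pigment genes there; this ratio was not tested. The paralogous cinnamyl alcohol dehydrogenase genes, which serve the last step of lignin monomer synthesis, moved in opposite directions under mannitol in both genotypes. CAD5 rose to 149 FPKM on mannitol against 52.7 in the duodecuple control, and to 299 FPKM against 60.8 in the wild-type control. CAD4 fell to 78.3 FPKM on mannitol against 169 in the duodecuple control, and to 39.9 FPKM against 103 in the wild-type control. FAH1, the ferulate 5-hydroxylase gene, rose 3.19-fold on mannitol in the duodecuple line and was 1.95-fold higher without a call in wild type, where CCoAOMT1 rose 2.08-fold.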
